A study of Saccharomyces cerevisiae with 8 samples.

Results

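The carnitine shuttle genes CAT2, YAT1, YAT2 and CRC1 and the peroxisomal citrate synthase gene CIT2 were followed through growth of yeast colonies. They are 5 of the 6936 entries of the deposited gene table, taken by gene name with earlier results of these data known, and all 5 passed the filter on low counts and were tested. The cells were Saccharomyces cerevisiae BY4741, a MATa laboratory strain that carries his3Δ1, leu2Δ0, met15Δ0 and ura3Δ0 in every group. The groups were Log phase cells from liquid culture and colonies on solid medium harvested on Day 2, Day 3 and Day 4, with 2 PAT-seq libraries each. PAT-seq reads the 3′ ends of polyadenylated RNA together with part of the tail. The labels state an interest in how expression relates to alternative polyadenylation, and the choice of poly(A) site was left out.

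Acetyl-CoA cannot cross the membranes of peroxisomes or mitochondria. Carnitine acetyltransferases move the acetyl group onto carnitine, and the acetylcarnitine can pass into mitochondria, where the acetyl group is handed back to coenzyme A. Citrate synthase in the peroxisome offers another way out, since it joins acetyl-CoA to oxaloacetate to make citrate, which feeds the glyoxylate cycle. Budding yeast does not make carnitine and takes it up from the medium, so the shuttle can work where the medium holds carnitine; what the medium held is not given in the labels.

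Depth was alike across libraries, with 6203115 to 8441949 counts and 2765040 to 3782771 tailed reads. Of the deleted markers, 3 were looked up and were near 0 in all 8 libraries, at 0 counts for MET17 (MET15), 0 to 10 for LEU2 and 0 to 8 for URA3. Levels are TMM-normalised CPM (counts scaled to library size), and changes are log2 fold changes ± SE from edgeR with n = 2 libraries per group. A gene is said to have risen or fallen where its adjusted p was under 0.05. Nothing in the labels says that the 2 libraries of a group are separate cultures, so the p-values measure the spread between these samples, which may be technical. Colony growth and time differ together between the colony groups and Log phase and cannot be told apart, and in bulk RNA more transcript per cell cannot be told from more cells that express the gene.

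CAT2 (YML042W, chromosome XIII, 192788 to 194800, plus strand) encodes the carnitine acetyltransferase found in both peroxisomes and mitochondria. CIT2 (YCR005C, chromosome III, 120946 to 122328, minus strand) encodes the peroxisomal citrate synthase, and CIT1 its mitochondrial paralog. The last 30 coding bases of these genes (RefSeq, R64) are shown, and other parts of the coding sequences are not. The capitals mark the 3 codons before the stop codon, which in CAT2 and CIT2 encode the C-terminal signal for import into peroxisomes. CAT2 lies at chrXIII:194771-194800 on the plus strand, CIT2 at chrIII:120946-120975 and CIT1 at chrXIV:629622-629651, both on the minus strand.
CAT2: aatgagaataaacgaaaaGCAAAGTTAtga
CIT2: ttggtcaaaaacattgaaAGCAAACTAtag
CIT1: ttggtaaagaaaatcgaaAGTAAGAACtaa
The other members are YAT1 (YAR035W, chromosome I, 190193 to 192256, plus strand), for a carnitine acetyltransferase of the outer mitochondrial membrane, and YAT2 (YER024W, chromosome V, 202192 to 204963, plus strand), for a further enzyme of that kind. CRC1 (YOR100C, chromosome XV, 513295 to 514278, minus strand) encodes the carrier that passes acetylcarnitine through the inner mitochondrial membrane. For CAT2, YAT1, YAT2 and CIT2 the count table held at least 99.8% of the reads that the gene table lists, and for CRC1 86.1%.

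The transcripts of all 5 genes were higher in colonies than in Log phase cells on every day. CAT2 had 22.6 and 21.7 CPM in Log phase, 243 and 229 CPM on Day 2, 410 and 480 CPM on Day 3, and 553 and 603 CPM on Day 4. Its Day 2 level was 10.7-fold above Log phase (3.41 ± 0.17, adjusted p = 1.92e-13), and no 2 groups overlapped. How many of all genes separate in this way was not counted, here or for the statements on overlap below. The plot of levels by library shows that most of the rise of CAT2, on the log scale, lay before the Day 2 harvest.

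**Figure D1:**
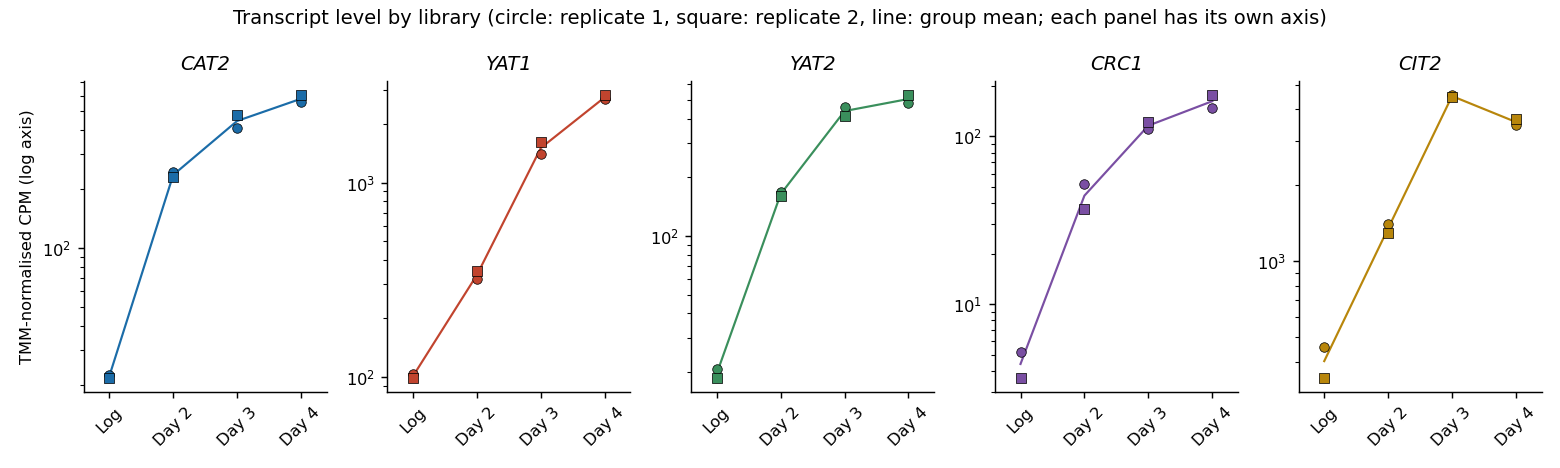
TMM-normalised CPM (log axis, a separate axis for each gene) of CAT2, YAT1, YAT2, CRC1 and CIT2 in the 8 libraries, by harvest; circles are replicate 1, squares replicate 2 and lines group means. CAT2, YAT1, YAT2 and CRC1 are highest on Day 4 and CIT2 on Day 3.

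YAT2 had 20.7 and 18.7 CPM in Log phase, 167 and 161 CPM on Day 2, 461 and 413 CPM on Day 3, and 481 and 527 CPM on Day 4. It rose by 3.06 ± 0.17 between Log phase and Day 2 (edgeR, adjusted p = 9.88e-13). Its Day 3 and Day 4 values lay close together without overlapping.

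The carrier gene CRC1 had 5.17 and 3.64 CPM in Log phase (36 and 23 counts), 51.7 and 37.0 CPM on Day 2, 110.5 and 121 CPM on Day 3, and 148 and 176 CPM on Day 4. With 36.4-fold on Day 4 over Log phase (5.19 ± 0.24, adjusted p = 4.30e-15), it had the largest fitted change of the 5 genes, from the fewest reads. It ranked 40 of 5930 genes tested in that comparison.

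YAT1 had 103 and 98.7 CPM in Log phase, 318 and 351 CPM on Day 2, 1404 and 1610 CPM on Day 3, and 2679 and 2816 CPM on Day 4. It had risen 3.32-fold by Day 2 (1.73 ± 0.14, adjusted p = 7.87e-10) and 27.2-fold by Day 4 (4.77 ± 0.16, adjusted p = 1.32e-16). For YAT1 36.3% of the Log phase to Day 4 log2 change was reached on Day 2, against 72.5% for CAT2, 65.3% for YAT2, 63.8% for CRC1 and 55.5% for CIT2.

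CIT2 had 459 and 345 CPM in Log phase, 1404 and 1296 CPM on Day 2, 4551 and 4476 CPM on Day 3, and 3479 and 3645 CPM on Day 4. It was highest on Day 3, at 4514 ± 52.8 CPM against 402 ± 81.0 CPM in Log phase (SD, n = 2; 3.49 ± 0.16, adjusted p = 9.17e-15). Both Day 4 libraries lay below both Day 3 libraries, but the difference did not pass the threshold (edgeR, adjusted p = 0.0846). The share of all genes that separate in this way was not counted.

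Read against all genes, 5 of 5 members were higher on Day 2 than in Log phase where 28.3% of genes tested were called higher. Their median log2 change was 3.06, beside 0.02 over all genes. On Day 3 it was 5 of 5 against 34.5% of all genes, with a median of 4.33 beside 0.01, and on Day 4 5 of 5 against 37.2%, with a median of 4.71 beside 0.01. The 3 comparisons share the Log phase libraries. With scaling to total counts alone, the median of all genes moved to 0.40, 0.41 and 0.45 on Day 2, Day 3 and Day 4 against Log phase, and the members' changes stayed between 2.11 (YAT1, Day 2) and 5.63 (CRC1, Day 4).

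From Day 2 to Day 3 all 5 genes rose again, where 24.2% of genes tested did. YAT1 rose most of the 5, by 2.17 ± 0.14 (edgeR, adjusted p = 1.07e-10), and ranked 127 of 5930 genes. CIT2 rose by 1.74 ± 0.15, YAT2 by 1.42 ± 0.15, CRC1 by 1.39 ± 0.18 and CAT2 by 0.92 ± 0.15, with 1.67e-05 as the largest adjusted p. On Day 4 all 5 were higher than on Day 2, where 30.5% of genes tested were, with changes of 1.29 ± 0.15 (CAT2) to 3.04 ± 0.15 (YAT1).

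Between Day 3 and Day 4 YAT1 rose again, with 2747 ± 96.9 CPM on Day 4 against 1507 ± 146 CPM on Day 3 (SD, n = 2; 0.87 ± 0.14, adjusted p = 1.13e-04). CRC1 was also called higher (0.48 ± 0.17, adjusted p = 0.0394), so that 2 of 5 members were called, where 11.8% of all genes were called higher. CAT2 (0.38 ± 0.14, adjusted p = 0.0547), YAT2 (0.21 ± 0.14, adjusted p = 0.307) and CIT2 (−0.34 ± 0.14, adjusted p = 0.0846) did not pass the threshold in edgeR. The order of levels was therefore Log phase, Day 2, Day 3, Day 4 for CAT2, YAT1, YAT2 and CRC1 and Log phase, Day 2, Day 4, Day 3 for CIT2, with the Day 3 and Day 4 neighbours of CAT2, YAT2 and CIT2 not separated by the test.

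These small steps between Day 3 and Day 4 depended on the fit. All groups share 1 estimate of the spread, and the replicate pairs were not equally close. Their chi-square per degree of freedom, larger where 2 replicates differ more than by counting error, was 32.5 for Day 2. It was 16.7 for Day 3, 10.3 for Log phase and 6.62 for Day 4. Whether the Day 2 pair widened the spread used for Day 4 against Day 3 was not tested. CRC1 missed the threshold when any 1 of 6 libraries was left out (edgeR, adjusted p = 0.0555 without Log phase replicate 1, 0.0555 without Log phase replicate 2, 0.208 without Day 3 replicate 1, 0.108 without Day 3 replicate 2, 0.0833 without Day 4 replicate 1 and 0.352 without Day 4 replicate 2). CAT2 was called with DESeq2 (adjusted p = 0.0298), with scaling to total counts in edgeR (adjusted p = 0.0343) and with only the 2 groups in the fit (adjusted p = 0.00554). It was also called without Day 2 replicate 1 (adjusted p = 0.00883) and without Day 2 replicate 2 (adjusted p = 0.0160), and CIT2 was called lower in the same 2 edgeR fits (adjusted p = 0.0459 and 0.0277) and with only the 2 groups (adjusted p = 0.0158). YAT1 was called in all 14 alternatives, with log2 changes of 0.77 to 0.96.

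**Figure D2:**
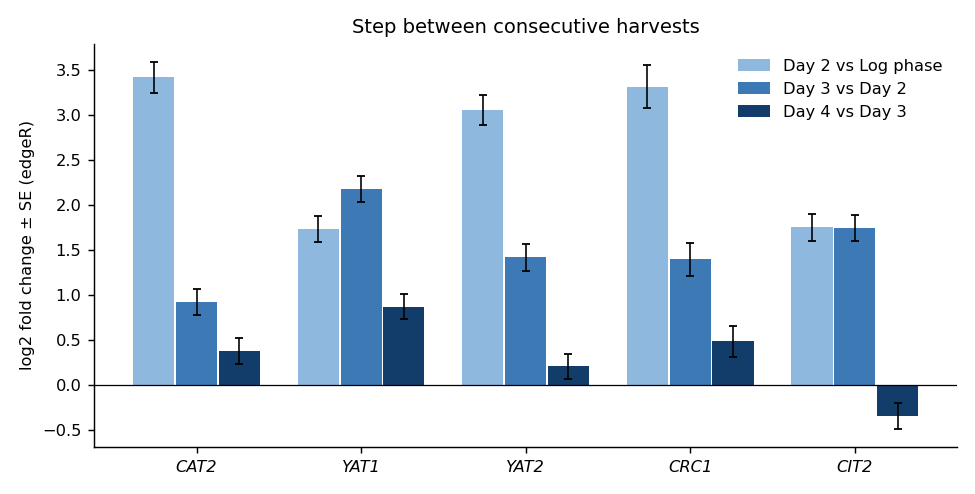
Log2 fold change ± SE (edgeR) of each gene between consecutive harvests; bars stand for Day 2 over Log phase, Day 3 over Day 2 and Day 4 over Day 3. CAT2, YAT2 and CRC1 have their largest bar at the first step, YAT1 at Day 3 over Day 2, and CIT2 has bars of 1.75 and 1.74 followed by −0.34.

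Ratios between members within a library do not depend on the scaling, and the length of a gene cancels in their change. They are a description, since 2 against 2 libraries cannot pass the threshold in an exact two-sided permutation test. The log2 ratio of YAT1 to CAT2 reads was 2.19 and 2.19 in Log phase, 0.39 and 0.62 on Day 2, 1.78 and 1.75 on Day 3, and 2.28 and 2.22 on Day 4. YAT1 and CAT2 therefore ended on Day 4 near the ratio they had in Log phase, after a dip on Day 2 that took in both Day 2 libraries. The log2 ratio of YAT2 to CAT2 stayed between −0.54 and 0.17 in all 8 libraries.

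CIT2 was lowest relative to YAT1 on Day 4. The log2 ratio of CIT2 to YAT1 was 2.15 and 1.80 in Log phase, 2.14 and 1.88 on Day 2, 1.70 and 1.48 on Day 3, and 0.38 and 0.37 on Day 4. In Log phase and on Day 2 these ratios overlapped, and the Day 4 values were the lowest. Against CIT1, the gene of the mitochondrial citrate synthase, the log2 ratio of CIT2 was 1.63 and 1.31 in Log phase, 1.24 and 1.40 on Day 2, 2.58 and 2.40 on Day 3, and 2.68 and 2.78 on Day 4. All 4 libraries of Day 3 and Day 4 lay above those of Log phase and Day 2, which overlapped.

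**Figure D3:**
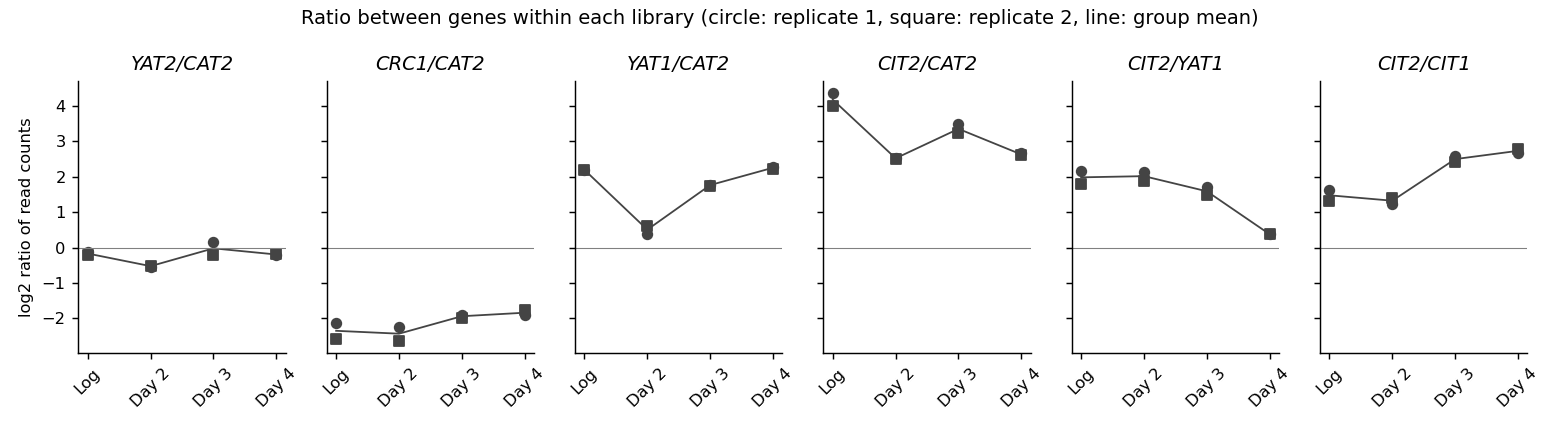
Log2 ratio of read counts between 2 genes within each library, by harvest; circles are replicate 1, squares replicate 2 and lines group means. YAT2/CAT2 stays within −0.54 to 0.17, YAT1/CAT2 dips on Day 2 to 0.39 and 0.62, and CIT2/YAT1 is lowest on Day 4.

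Poly(A) tails were compared in nt with limma, over the 5388 genes whose tailed reads numbered 10 or more in each library. The deposited lengths are means over tailed reads and run from 4 to 49 nt over all genes, within reads of 75 bases, so they do not measure longer tails. Over all genes tested the median difference from Log phase was 0.96 nt on Day 2, −0.97 nt on Day 3 and −1.16 nt on Day 4.

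CIT2 had the largest tail change of the 5 genes. Its mean tail was 19.6 and 19.4 nt in Log phase, 24.3 and 24.2 nt on Day 2, 18.5 and 18.4 nt on Day 3, and 18.6 and 18.5 nt on Day 4, from 997 to 18705 tailed reads per library. Both Day 2 libraries stood above the other 6, and the groups of Day 3 and Day 4 overlapped. On Day 2 the CIT2 tail was 4.69 ± 0.73 nt longer than in Log phase (limma, adjusted p = 0.0458), where 1.19% of genes tested were called, and CIT2 ranked 177 of 5388 genes.

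That Day 2 call lay close to the threshold: with 1 library left out, each of the 8 in turn, the CIT2 difference was 4.58 to 4.81 nt and the limma adjusted p 0.0593 to 0.244. With lengths centred on the median of each library the difference was 3.67 nt (adjusted p = 0.0984). The shorter tails after Day 2 were called under more alternatives. The CIT2 tail differed by −5.78 ± 0.73 nt on Day 3 against Day 2 (limma, adjusted p = 0.00709), where 22% of genes were called, and by −5.69 ± 0.73 nt on Day 4 against Day 2 (adjusted p = 0.00373), where 32.9% were. The Day 4 against Day 2 call was kept in all 12 alternatives and the Day 3 against Day 2 call in 11 of 12, the exception being the centred lengths (−3.61 nt, adjusted p = 0.0625).

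**Figure D4:**
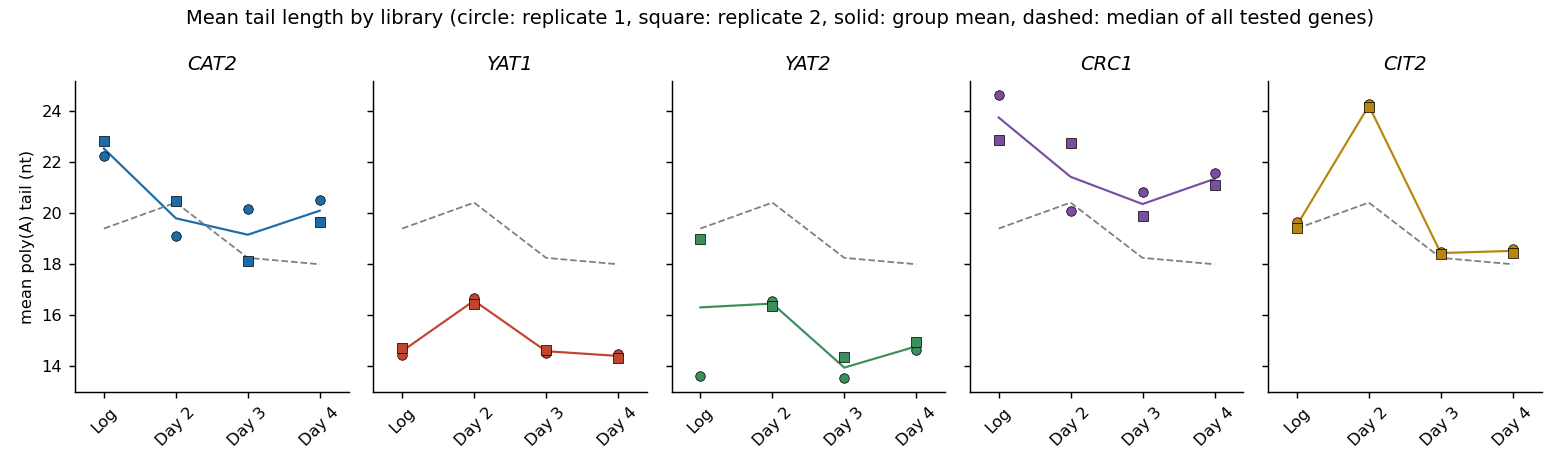
Mean poly(A) tail length in nt of each gene in the 8 libraries, by harvest; circles are replicate 1, squares replicate 2, solid lines group means and the dashed line the median of all genes tested. CIT2 stands at 24.3 and 24.2 nt on Day 2, and the group means of YAT1 and YAT2 lie below the dashed line in all 4 groups.

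YAT1 carried short tails throughout, at 14.5 and 14.7 nt in Log phase, 16.7 and 16.5 nt on Day 2, 14.5 and 14.7 nt on Day 3, and 14.5 and 14.3 nt on Day 4. In group means 5.62% to 10.8% of genes had shorter tails than YAT1. Its tail was called shorter on Day 3 than on Day 2 (−1.98 ± 0.61 nt, limma adjusted p = 0.0474) and on Day 4 than on Day 2 (−2.17 ± 0.61 nt, adjusted p = 0.0269), beside medians of −1.95 and −2.17 nt over all genes. YAT1 thus moved with the median gene, and with centred lengths these differences became 0.19 and 0.25 nt. With 1 library left out the Day 3 against Day 2 call of YAT1 was lost for each of the 8 (adjusted p 0.0591 to 0.164). The Day 4 against Day 2 call was lost without Day 2 replicate 1, Day 2 replicate 2, Day 4 replicate 1 or Day 4 replicate 2 (adjusted p = 0.0859, 0.0669, 0.0903 and 0.115).

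YAT2 had tails of 13.6 and 19.0 nt in Log phase from 42 and 35 tailed reads, so its Log phase value was poorly fixed. From Day 2 on it lay between 13.5 and 16.6 nt. In group means of Day 2, Day 3 and Day 4, 10.1%, 6.74% and 12.3% of genes had shorter tails than YAT2, so short tails were not particular to YAT1. CAT2 had 19.1 and 20.5 nt on Day 2 against 22.2 and 22.8 nt in Log phase, without overlap, but the difference of −2.69 ± 1.14 nt did not pass the threshold (limma, adjusted p = 0.204). CRC1 had 24.6 and 22.9 nt in Log phase from 19 and 17 tailed reads and 19.9 to 22.8 nt in colonies, and none of its differences was called. On Day 3 and Day 4 against Log phase no member was called, where 2.25% and 9.8% of genes tested were. Between Day 4 and Day 3 no gene was called in limma (0% of genes tested; 439 of 5388 had an unadjusted p under 0.05), so tail lengths of the 5 genes were not separated between those days.

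The share of reads that were tailed was 46.1% and 45.7% for CIT2 in Log phase, 54.4% and 53.0% on Day 2, 45.7% and 46.4% on Day 3, and 48.5% and 46.2% on Day 4. The Wilson 95% intervals of the Day 2 libraries (53.4% to 55.4% and 52.0% to 53.9%) did not reach that of any other library. The next highest share was that of Day 4 replicate 1. Thus the libraries with the longest CIT2 tails also had the highest tailed share. The intervals cover counting error only, and those of Day 4 replicate 1 and Day 4 replicate 2 did not overlap either. Intervals that stay apart therefore do not by themselves separate groups. In all genes with a share the median change on Day 2 against Log phase was 2.10 points, beside 7.76 points for CIT2, which ranked 1081 of 4751 genes. The median share of these genes was 45.4% and 41.6% in the Day 2 libraries and 41.7% and 40.4% in those of Log phase, so the 2 groups overlapped. Among CAT2, YAT1, YAT2 and CIT2, the lowest shares were those of YAT2, at 28.6% to 32.4% in all libraries. The shares of CRC1 are not compared, because its count table and gene table disagree on the number of reads.

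Among 3012 genes with at least 50 CPM on average, the patterns most like each member were found by the root mean square difference of centred log2 CPM over the 8 libraries. The nearest to CAT2 were RTN2, a reticulon-like gene (0.13), GLC3, for the glycogen branching enzyme (0.15), and YAT2 itself (0.21). Nearest to YAT2 were CIT3, the gene of a further citrate synthase (0.14), FMP16 (0.15) and NDE2, for an external NADH dehydrogenase (0.17). For YAT1 they were DDR2 (0.19), YIL100C-A (0.20) and JID1 (0.23), where the count table held 41.3% of the gene table's DDR2 reads. For CRC1 they were YNL195C (0.18), PAI3 (0.19) and YMR085W (0.21), and for CIT2 OPT2 (0.16), YOR186W (0.17) and CMI8 (0.17). Among the members themselves, CAT2 and YAT2 (0.21), YAT2 and CRC1 (0.23) and CAT2 and CRC1 (0.28) were close, while every pair with YAT1 or CIT2 differed by 0.57 to 0.74.

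Genes around the shuttle were described by lists. Of 10 genes for acetyl-CoA formation and uptake, 7 had risen and 3 had fallen by Day 4 relative to Log phase, where 37.2% of all genes tested were called higher and 37% lower, with a median of 3.38 beside 0.01 over all genes. AGP2, listed for carnitine uptake, had 261 ± 16.2 CPM on Day 4 against 34.3 ± 2.44 CPM in Log phase (2.92 ± 0.19, edgeR adjusted p = 1.61e-12). It had risen by 1.10 ± 0.18 on Day 2. It rose once more between Day 3 and Day 4, by 0.73 ± 0.17 (adjusted p = 0.00285). ATO2 (5.59 ± 0.19) and ADY2 (4.84 ± 0.19), for ammonium and acetate transport proteins, ADH2 (4.41 ± 0.19), for the alcohol dehydrogenase that oxidises ethanol, and ACH1 (4.20 ± 0.17), for a CoA transferase, rose as well. The 3 that fell were the aldehyde dehydrogenase genes ALD5 (−2.22 ± 0.26) and ALD6 (−1.54 ± 0.16) and the acetyl-CoA synthetase gene ACS2 (−0.81 ± 0.15).

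All 7 genes listed for the glyoxylate cycle and malate or succinate handling were higher on Day 4 than in Log phase (median 3.68). Of all genes, 37.2% were called higher. Among the 7 were the malate synthase gene MLS1 (4.75 ± 0.20), the isocitrate lyase gene ICL1 (4.74 ± 0.17) and SFC1 (3.68 ± 0.20), for a mitochondrial succinate and fumarate carrier. PCK1 (5.82 ± 0.17) was grouped with them on this list. ACO1 is on this list and again among the retrograde targets below. The other citrate synthase genes were both higher than in Log phase. CIT3 had 250 ± 10.6 CPM on Day 4 against 11.4 ± 0.0262 CPM in Log phase (4.46 ± 0.19), and CIT1 538 ± 7.71 CPM against 143 ± 6.66 CPM (1.91 ± 0.15). Between Day 3 and Day 4 CIT1 fell by 0.58 ± 0.14 (edgeR, adjusted p = 0.00492), with 538 ± 7.71 CPM on Day 4 against 802 ± 61.7 CPM on Day 3.

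Fatty acid oxidation in peroxisomes makes acetyl-CoA, whose acetyl group the shuttle can carry. Of its 14 listed genes, 13 had risen and 1 had fallen by Day 4, beside 37.2% and 37% of all genes (median 2.94), led by the thiolase gene POT1 (4.14 ± 0.20), the acyl-CoA oxidase gene POX1 (4.09 ± 0.20), SPS19 (3.89 ± 0.21) and the catalase gene CTA1 (3.53 ± 0.22), and the 1 that fell was ANT1 (−0.63 ± 0.19). Of 11 genes for import into peroxisomes, 8 were higher and 0 lower, beside the same shares of all genes, with a median of 0.78. PEX18 (5.06 ± 0.26), PEX10 (1.6 ± 0.20) and PEX2 (1.41 ± 0.17) changed most among these.

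The retrograde pathway signals from mitochondria to the nucleus, and CIT2 is its best known target. Of its 8 listed regulators 7 were tested, and by Day 4 2 had risen and 2 had fallen relative to Log phase, with a median of 0.10. With 37.2% of all genes called higher and 37% lower, these counts were near the background. RTG3, for a DNA-binding subunit, had 21.7 ± 6.14 CPM on Day 4 against 9.16 ± 1.58 CPM in Log phase (1.25 ± 0.27, adjusted p = 2.55e-04), and LST8 rose by 1.62 ± 0.18. RTG2, for the activator of the pathway, fell by 0.51 ± 0.15 (adjusted p = 0.00441) and the 14-3-3 gene BMH1 by 1.25 ± 0.16. MKS1, for the inhibitor, was at 0.39 ± 0.19 (adjusted p = 0.0698), and RTG1 had 0 to 7 counts per library and was not tested. Of 6 other targets of the pathway, 4 were higher on Day 4, where 37.2% of all genes were (median 0.93): PYC1 (2.63 ± 0.16), CIT1, ACO1 (1.31 ± 0.14) and IDH1 (0.55 ± 0.14), while DLD3 had 333 ± 1.89 CPM on Day 4 against 368 ± 23.9 CPM in Log phase and was not called. UCC1, for the F-box protein that marks Cit2 for degradation, had 70.8 ± 0.0107 CPM on Day 4 against 63.5 ± 13.3 CPM in Log phase (0.16 ± 0.20, adjusted p = 0.484).

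Of 9 listed regulators of release from glucose repression and of the oleate response, 7 had risen and 1 had fallen by Day 4 relative to Log phase. The list median was 2.55, and 37.2% of all genes were called higher and 37% lower. HAP4 (5.26 ± 0.22), CAT8 (4.84 ± 0.23), SIP4 (4.74 ± 0.30) and ADR1 (3.93 ± 0.20), for activators of respiration, gluconeogenesis and peroxisomal genes, rose most, and SNF4 (−1.32 ± 0.16), for a subunit of the Snf1 kinase, fell. CAT8 had 309 ± 7.80 CPM on Day 3 against 72.7 ± 27.3 CPM on Day 2, a rise of 2.09 ± 0.19 (edgeR, adjusted p = 9.90e-09).

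**Figure D5:**
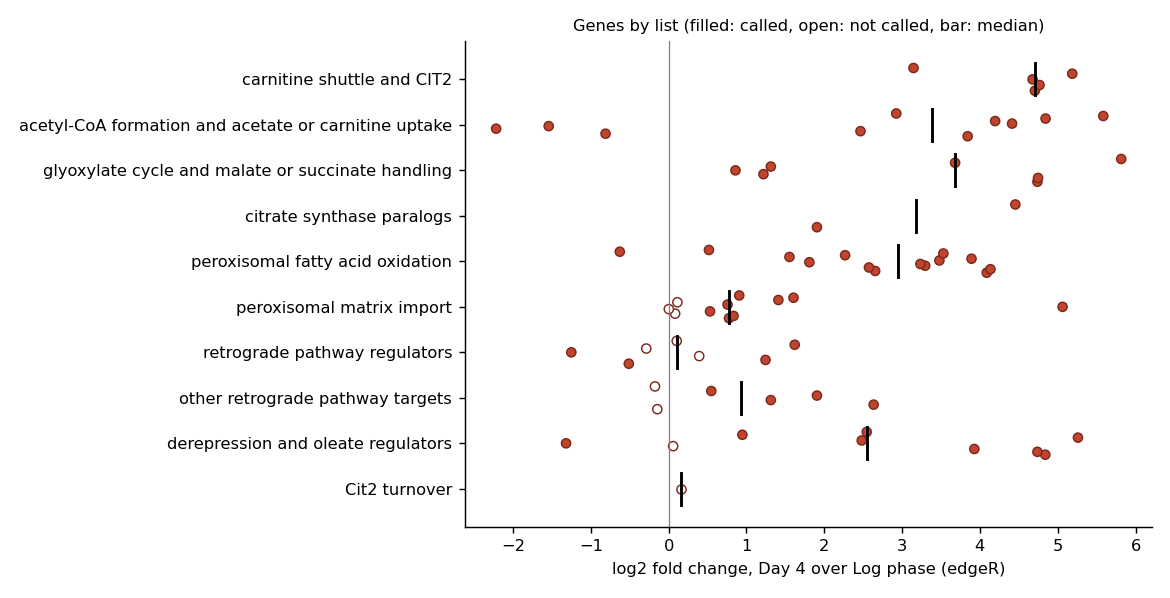
Log2 fold change on Day 4 over Log phase (edgeR) of the 5 genes and of each listed gene tested; filled points were called at the adjusted p threshold of 0.05, open points were not, and black bars are list medians. The 5 genes have a median of 4.71, the retrograde regulators 0.10.

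The 500 bases before the start codon (R64) were searched on both strands for letters that known factors of these pathways prefer. Windows of 30 bases are shown for the longer motifs, so that the letters found in each gene can be seen; capitals mark the match as it reads on the gene's strand. GGTCAC, the letters read by the retrograde factors, was present in 9.70% of 5764 promoters, and in 0.590% with 2 or more matches. CIT2 had 2 matches, on opposite strands, starting 346 and 312 bases before the start codon (chrIII:122657-122686 and chrIII:122623-122652, minus strand), and CRC1 had 1 (chrXV:514652-514681, minus strand). On the side where CIT2 starts, YCR006C lies 201 bases away, so both CIT2 matches are farther out than its near end. Whether they lie within YCR006C was not checked. Such matches are descriptions and not shown to be sites.
CIT2, first match: taggggcgaagaGGTCACgacctatttttt
CIT2, second match: cagaaaaaaagtGTGACCttttccgtagct
CRC1: ctgccattttttGGTCACtgctttttctgc
The shorter GTCAC, contained in GGTCAC, occurred in 42.5% of promoters and in YAT1, YAT2, CRC1 and CIT2 among the 5 genes.

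For the shuttle genes, CCNTT and CCG with 3 bases between, a loose form of the carbon source response element read by Cat8 and Sip4, were found in 2.69% of promoters and, among the 5 genes, in CAT2 (chrXIII:192498-192527, plus strand, match on the opposite strand). CGG and CCG separated by 15 to 18 bases, the shape of the oleate response element, were found in 8.93% of promoters and in YAT1 (chrI:190023-190052, plus strand, with a second match that overlaps it) and CRC1 (chrXV:514580-514609, minus strand). This shape reads the same on both strands. YAT2 and CIT2 had no match to either of these, which says only that the letters are not in this window. Short boxes were common: CCAAT occurred in 63.1% and AGGGG in 34.4% of promoters, and in 4 and 3 of the 5 genes.
CAT2: atctatggcCGGGCGAAAGGgcaaatgact
YAT1: ggccCGGCGGTCCGCGGTCATCCCCGcgga
CRC1: catCGGGTTACTGCTCCTAATATCCGcata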

How the data were processed

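Per the labels' protocols, PAT-seq libraries were prepared from total RNA and read on a SOLiD instrument with a read length of 75 bases. Aligner, build, strand use and the counting and tail rules: not given in the sources used here. The authors deposited counts of reads and of tailed reads per gene and library, and the mean tail length in nt, a score that runs from 4 to 49 nt. Their deposited gene table also holds, over all libraries together, the read count and the tailed fraction. Sample columns were mapped by name. Positions of 5801 of 5813 shared entries (99.8%) were identical in the RefSeq R64 annotation, so bases were read from that genome.

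The 5 genes were matched by symbol and joined by systematic name; they and the 9 pathway lists were chosen with earlier results of these data known. Expression was tested with edgeR 4.0.16 (TMM, filterByExpr, quasi-likelihood, 4 group means over 8 libraries). Tail length was tested with limma 3.58.1, requiring 10 tailed reads in each library, weighted by tailed reads up to 100, with a trended prior. P-values were adjusted by Benjamini-Hochberg over the genes tested, with 0.05 as the threshold. SEs are moderated for limma; for edgeR they are |log2 fold change| divided by √F. Alternatives were DESeq2 1.42.0, total-count scaling, no filter, tailed reads only, the 2 groups alone, equal weights, 50 tailed reads, a replicate block, leaving out each library, and tail lengths centred on the library median, the last chosen after seeing the data. Besides the 5 genes, the text names the 3 nearest in pattern to each, up to 4 called genes per list with the largest change on Day 4 against Log phase, and fixed regulators, except 1 gene that is not reported here; genes that moved against their list were named after their values were seen. Wilson 95% intervals cover counting error only. Scripts ran under R 4.3.3 and Python 3.11.15 (SciPy 1.17.1).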

Additional observations from a re-analysis of the deposited data

How the results depend on the processing

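For expression, all 5 genes were called in the same direction under all 14 alternatives in the 3 comparisons with Log phase and the 2 with Day 2. In Day 4 against Day 3, 2 of the 5 genes were called in the reported fit, 3 with DESeq2 and with total-count scaling, 4 with only the 2 groups compared in the fit, and 1 to 4 when 1 library was left out, with 608 to 2046 genes called in all against 1570 in the reported fit. Of all genes tested in this comparison, 1570 of 5930 were called in the reported fit and 1564 of 5930 with DESeq2. Total-count scaling called 1488 of 5930, and the fit with only the 2 groups 2020 of 5889. All these counts take calls in either direction. YAT1 and CRC1, called in the reported fit, were higher, while the counts of 4 include CIT2, called lower (−0.31 with only the 2 groups). Tail calls were fragile. In Day 2 against Log phase 64 genes were called; equal weights, the replicate block, the centred lengths and every fit with 1 library left out (0 to 0) called 0 genes and 0 members, and a minimum of 50 tailed reads called 234 genes. In Day 3 against Log phase 121 genes were called, against 28 with equal weights, 259 with at least 50 tailed reads, 1 with the replicate block, 11 with centred lengths and 0 to 114 with 1 library left out. In Day 4 against Log phase 528 genes were called, against 280 with centred lengths and 0 to 568 with 1 library left out. In Day 3 against Day 2 1187 genes and 2 members were called. Equal weights and the replicate block called 1 member, centred lengths 0 genes and 0 members, and leaving out 1 library 70 to 939 genes and 1 to 2 members. In Day 4 against Day 2 1774 genes and 2 members were called, against 410 genes and 1 member with centred lengths, and 685 to 1654 genes and 1 to 2 members with 1 library left out. The YAT1 tail differences that reversed with centring were 0.19 nt on Day 3 and 0.25 nt on Day 4, each against Day 2. Lone libraries were assumed to vary like the other groups. Same-numbered libraries did not deviate together (r of deviations −0.0349 to 0.00554). These correlations cannot show whether same-numbered libraries share a culture or preparation, which the labels do not say. With the replicate block edgeR called 3288 genes against 3348 in Day 2 against Log phase. CRC1 in Log phase rests on 36 and 23 counts, and its tails on 19 and 17 reads, so depth limits its folds and tails. Other causes were not tested.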

Other observations

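The protein-coding genes next to each member, taken as the nearest on either side with at least 100 reads in the gene table, are given by their values. On Day 4 against Log phase the neighbours of YAT2 fell, PRO3 by 1.95 and GCD11 by 1.78 on the log2 scale, and so did those of CRC1, KTR1 by 1.30 and RAS1 by 1.56. Beside CAT2, RRN11 was at −1.04 and VPS71 at −0.16 (edgeR adjusted p = 0.0348 for RRN11 and 0.478 for VPS71). Beside YAT1, SWH1 was higher (1.40) and MST28 lower (−0.90).

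Beside CIT2, YCP4, on the same strand 627 bases away, was higher on Day 2, Day 3 and Day 4 than in Log phase (1.25, 1.49 and 1.05). YCR006C, on the same strand with a gap of 201 bases on the side where CIT2 starts, had a mean of 1.19 CPM in Log phase, then 2.73 (Day 2), 13.6 (Day 3) and 14.9 (Day 4), a change of 3.61 on Day 4 against Log phase. These neighbours were named after their values were seen, and whether their reads share a source with CIT2 was not tested.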
